A study of Arabidopsis thaliana with 58 samples.

Results

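Mature leaves of Arabidopsis thaliana ecotype Columbia-0 were compared after 5 days without magnesium (Mg). The comparison took 8 of the 58 libraries of the series by their labels alone, 3 from Mg-deficient plants (0 mM Mg) and 5 from control plants (1.5 mM Mg). It took 15243 of the 19644 genes in the table of this tissue and day, which are those whose signal averaged 5 or more. All plants were wild type and grew in hydroponic culture with Mg until they were 10 days old, when 1 group was moved to a solution with sodium sulfate in place of magnesium sulfate. Leaves were harvested at an age of 15 days. Mature leaves were the oldest pair of rosette leaves, and each library was a composite of tissue from 2 or 3 plants that was kept for its RNA quality, so that the p-values below measure the spread between such composites. The assay was strand-specific RNA-seq, and the signal is the read count of a gene after the libraries were brought to a common size.

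Mg is the central atom of chlorophyll, the partner of ATP in most reactions that use it, an activator of Rubisco and a stabiliser of ribosomes. Mature leaves are source leaves that export sucrose through the phloem, and minerals can be moved out of them to growing organs. The vacuole stores much of the Mg of a leaf cell, and exchangers and channels of the vacuolar membrane set how much of it is held there. The comparison asked which transcripts of this source tissue differed at an intermediate time of Mg deprivation.

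The control libraries held 1126462 to 4015258 reads (median 1999506) and the Mg-deficient libraries 1741065 to 2316641 (median 1937889), with 15802 to 17594 genes with a read over all 8. Control 5 was the deepest and control 4 the shallowest library. Reads of organelle genes made up under 1% of control 4 (0.534%), control 5 (0.670%) and Mg-deficient 3 (0.686%), and 1.92% to 2.70% of the other 5 libraries, so that this split crosses both groups. Control 5 and Mg-deficient 2 stood furthest from the rest, with median correlations of log2 signal to the other libraries of 0.817 and 0.828, against 0.843 to 0.885 for the other 6. No pair of libraries was a duplicate. Control 1 lay with the Mg-deficient libraries in ER protein folding and salicylic acid genes and with the other controls in CAX1, CML41 and DRM1, all described below. CAX1, CML41 and DRM1 were named for a difference between the labelled groups, so that they cannot bear on the label of control 1. In log2 signal control 1 correlated at 0.921, 0.829 and 0.871 with Mg-deficient 1, 2 and 3. With controls 2 to 5 it correlated at 0.890, 0.907, 0.833 and 0.752. Whether the label of control 1 holds, or whether the organelle share marks a batch, was not tested. Values are given with and without control 1 where it decides them. Markers of leaf tissue were present. The signal summed over 6 mesophyll markers ran from 52625 to 77076 in the controls and from 46414 to 71829 without Mg. Over 8 markers of epidermis and guard cells it ran from 1504 to 1979 and from 1085 to 2018, and over 8 vascular markers from 1085 to 1481 and from 1239 to 1511. None of 5 root markers reached the minimum signal, and PYK10, a beta-glucosidase abundant in roots, had a mean of 3.87. In whole leaves, fewer cells of a type and less RNA per cell cannot be told apart.

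Few transcripts passed an unadjusted threshold. With the unadjusted threshold of 0.01 for p, 68 genes were higher without Mg (0.446% of those tested) and 166 were lower (1.09%). At p under 0.05 the counts were 384 (2.52%) and 676 (4.43%). A two-sided threshold is passed by its own share of unchanged genes, split evenly over both directions. The higher counts were below that split share at 0.01 and near it at 0.05, so that their number is no more than chance would give. The lower counts were above it in this fit. No gene passed a Benjamini-Hochberg adjusted p under 0.05 in limma, the smallest adjusted p being 0.44, nor did any with voom weights on whole reads, so that every gene described as higher or lower here is a candidate by its unadjusted p. Below, p under 0.01 or 0.05 is unadjusted unless stated, and a gene is called at p under 0.01 where no other threshold is given. All genes together had a median log2 fold change of -0.02, with 48.3% of genes positive and 51.7% negative. Groups did not overlap for 342 genes that were higher (2.24%) and 387 that were lower (2.54%). The share of higher calls, 29.1% in limma on log2 signal, was 63.2% (127 higher and 74 lower) in limma with voom weights on whole reads, so that no excess of lower genes can be stated. Among fits that left out 1 library, the counts moved most without control 1 (120 higher and 320 lower, of which 7 and 47 passed adjustment). They were 39 and 202 without Mg-deficient 1, 44 and 121 without Mg-deficient 2, 56 and 89 without control 2 and 50 and 89 without control 3.

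**Figure D1:**
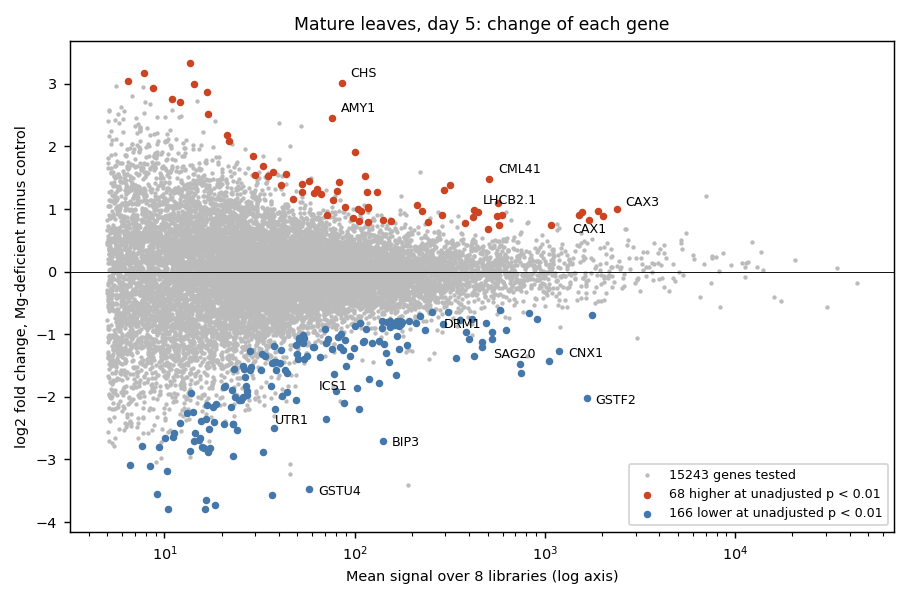
Change of each of the 15243 genes tested (vertical axis, log2 fold change of signal plus 1, Mg-deficient minus control) against its mean signal over 8 libraries (horizontal log axis). Coloured points are the 68 higher and 166 lower genes at unadjusted p under 0.01, among which the named lower genes GSTU4, BIP3, UTR1 and ICS1 lie at -3.48 to -2.10 and the named higher genes CHS, AMY1 and CML41 at 1.48 to 3.02.

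Many genes for protein folding in the endoplasmic reticulum (ER) were lower in the Mg-deficient libraries. Proteins for the cell surface, the vacuole and secretion are folded, glycosylated and joined by disulfide bonds in the ER, and a shortage of folding capacity switches on the unfolded protein response through the membrane-bound factors bZIP28 and IRE1, which splices the mRNA of bZIP60. Of 43 listed genes 42 were tested, and 36 of them were negative. At p under 0.05, 21 were lower and 0 higher (against 4.43% of all genes lower), and 5 were lower at p under 0.01 (against 1.09%). The median log2 fold change was -0.79, beside -0.02 over all genes. By role, 5 of 8 luminal chaperones, 4 of 5 members of the lectin cycle, 6 of 10 enzymes of disulfide formation, 5 of 6 genes of glycosylation and nucleotide sugar transport and 1 of 5 sensors and regulators were lower at p under 0.05. None of 8 genes of ER-associated degradation was.

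The promoters of this list were searched for the sequences to which factors of the unfolded protein response bind. The ER stress element, CCAAT and CACG with 10 bases of any kind between them, on either strand, was found in 14 of 42 promoters of the list (33.3%), beside 233 of 27443 promoters of protein-coding genes (0.849%), in windows from 250 bases before to 50 after the start of the RefSeq gene model. The core of the unfolded protein response element, CCACGTCA, was in 5 (11.9%, beside 1.51%), and the G-box CACGTG, which can share letters with both, in 15 (35.7%, beside 7.68%). These matches are a description of the letters. The list was known when the motifs were chosen. Of the 14 members with an ER stress element 9 were lower at p under 0.05 (64.3%, median -0.90), and of the 28 without one 12 (42.9%, median -0.78), a difference that was not tested. The 250 bases upstream of 4 members are shown to let the element be read in place, chosen as the members of smallest p with an element wholly upstream of the start. They come from RefSeq (TAIR10.1) and are written 5′ to 3′ on the strand of the gene. Capitals mark the fixed letters of the ER stress element on either strand and, in CRT1A, also the response element core. BIP3 (chr1:2931851-2932100, minus strand) holds the element at 2 places and the others at 1, PDIL1-2 at chr1:29126398-29126647 (plus strand), UTR3 at chr1:4913168-4913417 (minus strand) and CRT1A at chr1:21092710-21092959 (minus strand).
BIP3: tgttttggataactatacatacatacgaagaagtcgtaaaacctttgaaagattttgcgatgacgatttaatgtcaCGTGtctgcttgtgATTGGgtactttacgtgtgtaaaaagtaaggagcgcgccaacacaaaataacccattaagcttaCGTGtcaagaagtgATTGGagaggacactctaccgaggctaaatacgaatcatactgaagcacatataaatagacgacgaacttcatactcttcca
PDIL1-2: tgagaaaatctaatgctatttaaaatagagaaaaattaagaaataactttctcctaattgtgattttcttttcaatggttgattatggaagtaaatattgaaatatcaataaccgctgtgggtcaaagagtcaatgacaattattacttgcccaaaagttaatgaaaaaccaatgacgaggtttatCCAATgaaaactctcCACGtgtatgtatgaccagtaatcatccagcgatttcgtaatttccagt
UTR3: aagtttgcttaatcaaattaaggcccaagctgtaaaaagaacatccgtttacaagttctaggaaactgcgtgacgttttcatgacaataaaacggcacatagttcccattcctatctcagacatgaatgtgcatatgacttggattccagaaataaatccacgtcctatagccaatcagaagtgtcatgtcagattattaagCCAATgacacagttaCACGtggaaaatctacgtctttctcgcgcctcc
CRT1A: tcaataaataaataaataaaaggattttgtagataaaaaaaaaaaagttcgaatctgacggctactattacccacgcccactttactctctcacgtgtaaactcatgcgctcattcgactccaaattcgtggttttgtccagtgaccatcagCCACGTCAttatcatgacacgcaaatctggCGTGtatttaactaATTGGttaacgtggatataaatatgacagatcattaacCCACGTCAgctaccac

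BIP3 (AT1G09080), the luminal Hsp70 chaperone that is scarce without ER stress, had the largest difference of the list. Its signal was 27.2, 127, 132, 258 and 496 in controls 1 to 5 and 21.0, 51.5 and 8.35 in Mg-deficient 1 to 3. Controls 2 to 5 were all above the Mg-deficient libraries, but control 1 lay among them. The log2 fold change was -2.70 ± 0.68 (SE; adjusted p = 0.451), and the call at an unadjusted p under 0.01 ended without Mg-deficient 3 (-3.33 to -2.08 over 8 leave-one-out fits). UTR1 (AT2G02810), a UDP-sugar transporter of the ER, was at 23.3, 94.4, 81.1, 71.2 and 242 in controls and at 19.6, 6.36 and 24.7 without Mg. Control 1 was again the only control inside the Mg-deficient range, and control 5 was highest. The log2 fold change of UTR1 was -2.35 ± 0.58 (adjusted p = 0.451) and its call held in each of 8 leave-one-out fits. ERDJ3B (AT3G62600), a J-domain co-chaperone of BiP, was at 237, 612, 652, 390 and 858 in controls and at 177, 315 and 137 in Mg-deficient leaves, a log2 fold change of -1.34 ± 0.35 (adjusted p = 0.457, -1.68 to -1.08 over the leave-one-out fits, and not called without Mg-deficient 3). CNX1 (AT5G61790), calnexin, the membrane lectin that holds glycoproteins for folding, was at 492, 1539, 1223, 1418 and 3190 and at 487, 556 and 614. The 3 Mg-deficient values lay close together, whereas the controls spanned a wide range with control 1 at the bottom, inside the Mg-deficient range, and control 5 at the top. Its log2 fold change was -1.28 ± 0.39 (adjusted p = 0.564), and it was called neither without Mg-deficient 1 nor without Mg-deficient 2 (-1.63 to -0.96 over the leave-one-out fits).

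The remaining lower members spanned the folding cycle. BIP1, a constitutive BiP named after its value was seen, had a log2 fold change of -0.93 (adjusted p = 0.578) and was called in 3 of 8 leave-one-out fits. BIP2 was at -0.83. The pair encode nearly identical proteins, so that short reads could be split between them and their separate values are uncertain. Of the lectin chaperones, the calreticulins CRT1B and CRT1A had log2 fold changes of -1.30 and -0.74 and the second calnexin gene, AT5G07340, one of -1.22. Protein disulfide isomerases ranged from -1.30 (PDIL1-3) to -0.79 (PDIL2-1) among the 6 with p under 0.05. STT3A and STT3B, the catalytic subunits of the enzyme that adds N-glycans, were at -0.88 and -1.07. BZIP60, the transcription factor made by splicing, was at -0.78 (adjusted p = 0.694), with a signal of 110, 253, 244, 348 and 498 in controls and 148, 149 and 154 in Mg-deficient leaves, where the 3 libraries were alike and control 1 lay below them. The other sensors lay on both sides of 0. IRE1A was at 1.34, IRE1B at 0.56, BZIP17 at 0.57 and BZIP28 at -0.80, none of them with p under 0.05. Total mRNA per gene cannot show the splicing of BZIP60. Some of these members passed p under 0.05 only narrowly. Of 8 leave-one-out fits, BIP2 and the disulfide isomerase PDIL1-1 kept p under 0.05 in 1, that without control 1. BZIP60 kept it in 2 and CRT1A and STT3A in 3, beside 7 for CRT1B, STT3B, PDIL1-3 and PDIL2-1.

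Control 1 lay with the Mg-deficient libraries across this list. Over the 42 genes its median was -0.91 relative to the mean of the controls, beside -0.78, -0.60 and -0.83 in Mg-deficient 1, 2 and 3. The other controls had medians of 0.15, 0.08, 0.09 and 0.71. Of the 42 members, control 1 was the lowest control in 34 and lay at or below the highest Mg-deficient library in 39. The Mg-deficient libraries were all below controls 2 to 5 in 25, and control 5 was the highest control in 29. For the 21 members with p under 0.05 these counts were 21, 19, 20 and 19, in that order. Those 21 were chosen by their p in the same libraries, which raises such counts. The counts were not taken over all genes. Without control 1, 26 members were lower at p under 0.05, the median was -0.996 and 9 passed an adjusted p under 0.05 in limma, with the smallest for BIP3 (0.0126) and CNX1 (0.0173). Without control 5 the count was 12, without Mg-deficient 1 it was 9 and without Mg-deficient 3 it was 11. Within the 5 libraries of high organelle share 7 members were lower at p under 0.05 (median -0.44), beside 5.37% of all genes. BIP3 had a log2 fold change of -1.20 there and of -5.26 between the 3 of low share. The part of control 1 or of the organelle share in this result was not tested.

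**Figure D2:**
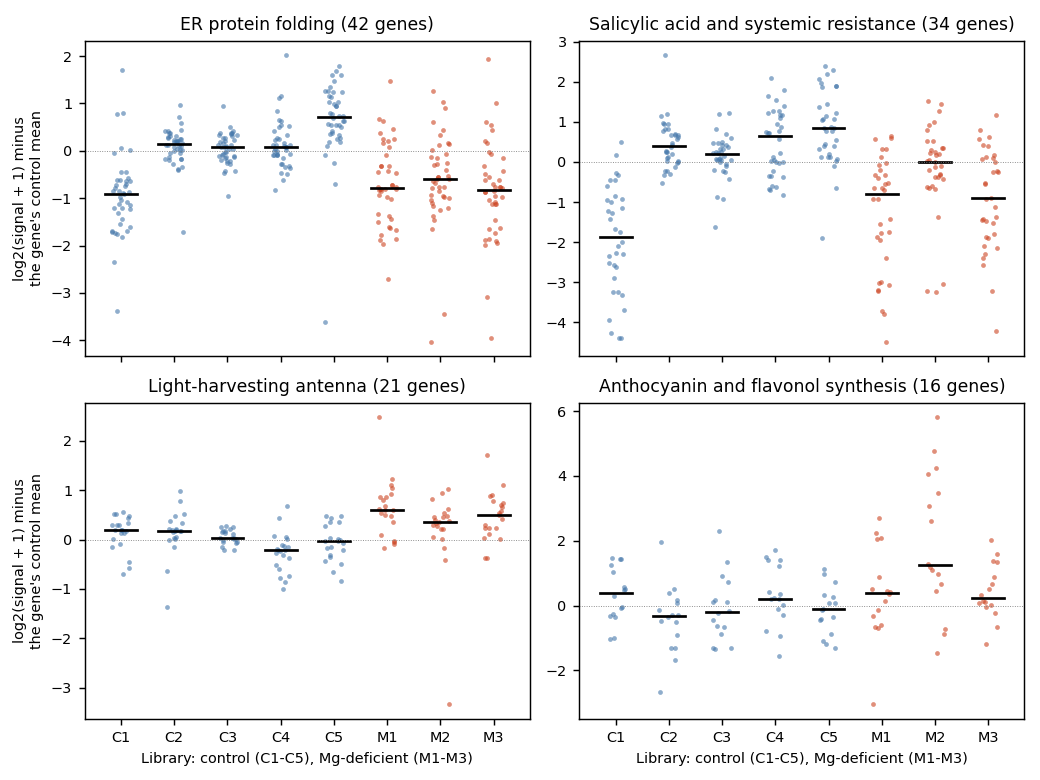
Members of 4 gene lists in each library (points, log2 of signal plus 1 minus the mean of the 5 controls for that gene; bars, medians; C1 to C5 control, M1 to M3 Mg-deficient). ER protein folding sits at medians of -0.78, -0.60 and -0.83 in the Mg-deficient libraries and at -0.91 in control 1, whereas the antenna genes have medians of 0.61, 0.36 and 0.49 without Mg and of -0.22 to 0.20 in the controls.

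Some salicylic acid genes were lower. Salicylic acid is made from chorismate by ICS1 in the chloroplast during defence, EDS5 exports the product, and NPR1 with its NIMIN partners and WRKY factors pass the signal on. Of 34 genes tested on synthesis, signalling and systemic acquired resistance (SAR), 7 were lower and 0 higher at p under 0.05 (against 4.43% of all genes lower), 5 were lower at p under 0.01 (against 1.09%), and the median log2 fold change was -0.39. ICS1 (AT1G74710) had a signal of 29.2, 85.4, 93.2, 235 and 186 in controls and of 26.6, 11.4 and 38.1 in Mg-deficient leaves. Apart from control 1 every control exceeded every Mg-deficient library. The log2 fold change of ICS1 was -2.10 ± 0.54 (adjusted p = 0.451, -2.54 to -1.63 over the leave-one-out fits, and not called without Mg-deficient 2). NIMIN-2 (AT3G25882), a binding partner of NPR1, was at 23.3, 210, 140, 138 and 246 and at 13.2, 45.3 and 26.8, a log2 fold change of -2.19 ± 0.58 (adjusted p = 0.457, -2.76 to -1.74 over the leave-one-out fits, and not called without Mg-deficient 1). EDS5, named after its value was seen, differed by -2.44 (adjusted p = 0.627, called in 3 of 8 leave-one-out fits). WRKY70, a factor that promotes salicylic acid responses, was at -1.21 ± 0.39 and AT5G03350, a legume lectin family gene, at -1.79 ± 0.57. The call of WRKY70 ended without any 1 of controls 2, 3 and 4 and Mg-deficient 1 and 3 (-1.71 to -0.84 over the fits), and that of AT5G03350 without any 1 of controls 2 to 5 and Mg-deficient 1 and 3 (-2.49 to -1.39).

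The effectors of that pathway were not called. PR1, PR2 and PR5, secreted proteins used as its markers, had log2 fold changes of -0.88, 0.67 and 0.36, none with p under 0.05. EDS1, PAD4 and NPR1, the central regulators, were at 0.20, -0.18 and -0.19. In control 1 the median over the 34 genes was -1.88 relative to the control mean, lower than the -0.81, 0.01 and -0.90 of Mg-deficient 1, 2 and 3, and it was the lowest control for 29 of 34 genes. Without control 1, 17 members were lower at p under 0.05 and 4 passed an adjusted p under 0.05 in limma: NIMIN-2 (0.0047), ICS1 (0.0173), AT5G03350 (0.0199) and WRKY70 (0.0377). The count at p under 0.05 was 4 without Mg-deficient 1 and 12 without Mg-deficient 2, and without control 5 it was 5, with 2 members higher. Within the 5 libraries of high organelle share 2 of 32 tested were lower (6.25%) and 3 higher (9.38%), beside 5.37% and 3.01% of all genes. The part of control 1 in these counts was not tested.

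Single genes of other parts of defence were called in both directions, and the lower ones are given first. GSTF2 (AT4G02520), a phi-class glutathione S-transferase that defence signals raise, was at 380, 2157, 2372, 2028 and 4888 in controls and at 271, 745 and 435 in Mg-deficient leaves. Controls 2 to 5 were far above the highest Mg-deficient library and control 1 lay below it. GSTF2 differed by -2.02 ± 0.54 (adjusted p = 0.457, not called without Mg-deficient 1, at -2.58 to -1.66 over the leave-one-out fits), and without control 1 it was -2.58 with an adjusted p of 0.00152 in limma. GSTF2 has a close homologue, GSTF3, so that shared reads could have been split. GSTU4 (AT2G29460), of the tau class, was at 9.65, 35.7, 104, 180 and 108 and at 0.196, 12.1 and 9.26, a log2 fold change of -3.48 ± 0.85 (adjusted p = 0.451) that was called in each leave-one-out fit. Control 1 again lay inside the Mg-deficient range. These were 2 of the 3 members lower at p under 0.05 among 23 glutathione S-transferases and glutaredoxins tested (4.43% over all genes), where the median was -0.15. BAP1 (AT3G61190), an inhibitor of defence-related cell death, was at 12.6, 49.7, 41.2, 66.2 and 76.9 and at 7.97, 1.47 and 8.22 with no overlap, a log2 fold change of -2.88 ± 0.64 (adjusted p = 0.44). IGMT2 (AT1G21120), an indole glucosinolate methyltransferase, had 2.86, 17.9, 16.9, 9.69 and 36.0 in controls and no read in the 3 Mg-deficient libraries, which makes it at least 16.5-fold lower (against a floor of 3 reads over the group). IGMT2 belongs to a cluster of similar genes among which short reads could be split. Of 23 genes of pattern-triggered immunity 3 were lower at p under 0.05 (CERK1, WRKY18 and WRKY40), with a median of -0.23, and 2 of 11 genes of indole glucosinolates and camalexin, with a median of -0.43, beside 4.43% of all genes. Higher were TGG2, LCR69 and VSP2, described below, and at p under 0.05 the defensin PDF1.2 (2.47, adjusted p = 0.652, 2.01 to 2.95 over the leave-one-out fits), without overlap between groups. At the same threshold ORA59 and PR4 were lower (-2.54 to -1.74 and -1.25 to -0.83 over the fits). Of 5 jasmonate response genes tested 2 were higher and 2 lower at p under 0.05, beside 2.52% and 4.43% of all genes. The median of all 25 jasmonate genes tested was -0.24, with 17 negative.

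Few markers of leaf senescence passed the test on day 5, and those that did were lower. Of 16 tested, 2 were lower at p under 0.05 (4.43% over all genes) and 0 higher, and the median log2 fold change was -0.58. SAG20 (AT3G10985), a gene that senescence and wounding raise, was at 450, 444, 471, 969 and 628 in controls and at 287, 221 and 275 without Mg, with no overlap. Its log2 fold change was -1.12 ± 0.26 (adjusted p = 0.44) and was called in each leave-one-out fit. RD26 (AT4G27410), a NAC factor of drought and senescence, was at 44.8, 172, 141, 114 and 134 and at 41.6, 48.3 and 27.9, a log2 fold change of -1.51 ± 0.39 (adjusted p = 0.451), with control 1 inside the Mg-deficient range. Control 1 was the lowest control for 14 of the 16 genes, and without it 7 were lower, beside 4 without Mg-deficient 2 and 4 without Mg-deficient 3. Of all genes 5.66%, 3.51% and 5.65% were lower in these fits, in that order. Within the 5 libraries of high organelle share the median was 0.02. Of 14 genes of chlorophyll breakdown, with values from -0.71 to 0.76, 1 was higher at p under 0.05 (2.52% over all genes) and 0 lower. This was HCAR, a reductase of the step from chlorophyll b to a, at 0.74 (adjusted p = 0.716) with overlap between groups. NYE1, which removes Mg from chlorophyll a, was at -0.51 (adjusted p = 0.796), NYC1, the chlorophyll b reductase, at 0.23 and MRP3, a vacuolar transporter of chlorophyll catabolites, at 0.13.

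Some light-harvesting antenna genes of photosystem II were higher. The antenna proteins bind chlorophyll a and b, and therefore Mg, around the 2 photosystems: LHCB1 to LHCB3 form the mobile trimers of photosystem II, LHCB4 to LHCB6 its inner ring, and the LHCA proteins the belt of photosystem I. Of 21 genes 19 were positive, 6 were higher at p under 0.05 (2.52% over all genes), 5 at p under 0.01 (0.446%) and 0 lower. The median log2 fold change was 0.37, and 8 of 21 did not overlap between groups (2.24% over all genes). LHCB2.1 (AT2G05100) had a signal of 345, 516, 261, 174 and 304 in controls and of 574, 577 and 644 in Mg-deficient leaves, all above the controls. Its log2 fold change was 0.99 ± 0.28 (adjusted p = 0.508, 0.79 to 1.18 over the leave-one-out fits, and not called without Mg-deficient 3). CAB3 (AT1G29910), an LHCB1 gene, was at 1923, 1514, 1321, 864 and 1122 and at 2375, 2297 and 2231. The Mg-deficient libraries were again all higher and lay close together, while the controls spread widely. CAB3 differed by 0.82 ± 0.24 (adjusted p = 0.553, 0.67 to 0.96 over the leave-one-out fits, and not called without Mg-deficient 1 or without Mg-deficient 2).

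LHCB3 and LHCB4.2 were at 0.74 ± 0.22 each (adjusted p = 0.564 for both), without overlap between groups. Neither was called without control 4 or without Mg-deficient 1 (0.61 to 0.83 and 0.56 to 0.84 over the leave-one-out fits), nor LHCB3 without Mg-deficient 3. LHCB2.3, named after its value was seen, was at 1.53 (adjusted p = 0.585, called in 5 of 8 leave-one-out fits and not without Mg-deficient 1). The genes CAB1, CAB2 and CAB3, and likewise LHCB2.1 and LHCB2.2, are nearly identical in sequence, so that reads may be split among them and their separate values are uncertain. CAB2 was at 0.28 (adjusted p = 0.889), with 318, 946, 531, 239 and 648 in controls and 452, 484 and 889 without Mg, and LHB1B1 was the only LHCB1 gene with a negative value, at -0.28. LHCB7 was the other negative member of the list, at -0.87 (adjusted p = 0.815). LHCA1 to LHCA6 lay between 0.22 and 0.42, none with p under 0.05. The median of the list was 0.61, 0.36 and 0.49 relative to the control mean in Mg-deficient 1 to 3 and between -0.22 and 0.20 in the controls. Control 4, with the fewest reads, was lowest. The count at p under 0.05 was 10 without control 1 (3.67% of all genes higher in that fit), and the median stayed between 0.30 and 0.52 over the leave-one-out fits. With a term for the class of organelle share the count was 12 of 21, beside 3.35% of all genes.

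Few genes of the rest of the photosynthetic machinery passed p under 0.05. Of 31 photosystem and electron transport subunits encoded in the nucleus 28 were positive, with a median log2 fold change of 0.22, and 3 were higher at p under 0.05 (2.52% over all genes): PSAE-1 (0.49), PSAN (0.46) and PSBQ-2 (0.68). Of 33 genes of carbon fixation and photorespiration none had p under 0.05 in either direction, and the median was 0.05. RBCS1A, a small subunit gene of Rubisco and the transcript of highest signal on the lists, had a mean of 45602 ± 6660 (SD) in controls and of 40649 ± 11217 in Mg-deficient leaves. In chlorophyll synthesis 20 of 25 genes were positive with a median of 0.16, and 2 were higher and 1 lower at p under 0.05, beside 2.52% and 4.43% over all genes. The higher members were GSA2, which makes 5-aminolevulinate (0.73, adjusted p = 0.633), and HEMB1, which joins it into porphobilinogen (0.58, adjusted p = 0.657), both without overlap. The lower member was HEMD (AT2G26540), the uroporphyrinogen III synthase upstream of the Mg branch, with 75.2, 57.6, 59.2, 63.0 and 73.1 in controls and 36.6, 23.54 and 16.6 without Mg. These groups lay well apart, with a log2 fold change of -1.39 ± 0.36 (adjusted p = 0.451) that was called in each leave-one-out fit. Subunits of Mg chelatase, which puts Mg into protoporphyrin, gave 0.44 (CHLI1, adjusted p = 0.745), 0.12 (CHLD), 0.07 (CHLI2) and -0.07 (CHLH), the chelatase activator GUN4 0.14 and chlorophyll synthase CHLG 0.12.

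Of 3 vacuolar cation exchangers 2 were higher. CAX1 (AT2G38170) and CAX3 (AT3G51860) exchange calcium for protons at the vacuolar membrane, and the pair are known to shape how Arabidopsis tolerates unbalanced calcium and Mg. CAX1 was at 1691, 1230, 1661, 1448 and 1017 in controls and at 3013, 2731 and 2394 in Mg-deficient leaves. All Mg-deficient libraries were above all controls, and control 1 was the highest control here. The log2 fold change of CAX1 was 0.96 ± 0.22 (adjusted p = 0.44), it was called in each leave-one-out fit, and it was alike within the libraries of high (0.92) and low (0.98) organelle share. CAX3 was at 1391, 1418, 1564, 1827 and 2233 and at 3418, 2068 and 5141. Mg-deficient 2 lay within the control range. CAX3 differed by 0.997 ± 0.27 on the log2 scale (adjusted p = 0.473, 0.68 to 1.34 over the leave-one-out fits, and not called without Mg-deficient 3). Of the 11 genes of Mg transport tested these were the 2 at p under 0.01 (0.446% over all genes). MHX1, the vacuolar exchanger of Mg and zinc for protons, was at -0.36 (adjusted p = 0.819). MRS2-3, of the MRS2 family of Mg channels, was at 0.73 (adjusted p = 0.698) without overlap but had p over 0.05 in 5 of 8 leave-one-out fits, those without control 1, 4 or 5 or Mg-deficient 1 or 2. The 8 members other than CAX1, CAX3 and MRS2-3, MHX1 included, lay between -0.53 and 0.42 with p over 0.05, and the list median was -0.13.

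CML41 (AT3G50770), a calmodulin-like calcium sensor, had the smallest p among the named genes. It was at 229, 286, 245, 221 and 616 in controls and at 760, 812 and 901 without Mg. The 3 Mg-deficient libraries were above every control, of which control 5 stood well above the other 4. It differed by 1.48 ± 0.29 (adjusted p = 0.44), and was called in each leave-one-out fit. Other ion genes gave single calls. NAS2, a nicotianamine synthase that makes the chelator of iron, zinc and copper, was higher (1.30 ± 0.36, adjusted p = 0.473, 0.94 to 1.53 over the leave-one-out fits, and not called without Mg-deficient 3), with 94.7, 254, 279, 113 and 215 in controls and 317, 355 and 719 in Mg-deficient leaves. FRO6 (AT5G49730), a leaf ferric reductase, was lower at -1.24 ± 0.31 (adjusted p = 0.451), with 90.8, 84.5, 98.7, 132 and 80.0 and 50.6, 31.8 and 39.2, and it was called in each leave-one-out fit. CCH, a copper chaperone, was at -0.65 ± 0.22 (adjusted p = 0.626), a call that held only without control 1 or without control 3 among 8 leave-one-out fits (-0.75 to -0.55). SOS1, the sodium exporter of the plasma membrane, was not called (unadjusted p = 0.0153 in limma). It was at -1.31 ± 0.49 (adjusted p = 0.643) without overlap between groups, and had p over 0.05 without control 2 or without Mg-deficient 2. Ferritins FER1 and FER4, the plastid iron stores, were at 0.49 and -0.02, neither with p under 0.05. No member of the nitrogen list had p under 0.05 and none of the phosphate and sulfate lists p under 0.01.

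**Figure D3:**
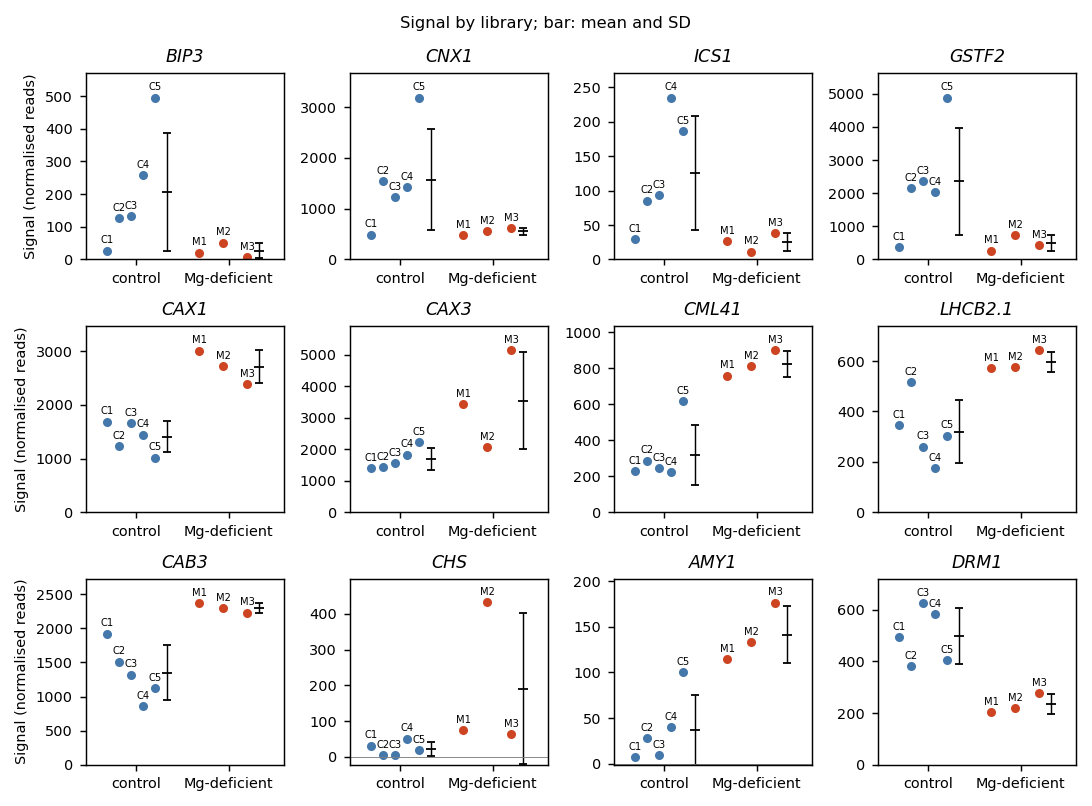
Signal of 12 genes in each library (points; C1 to C5 control, M1 to M3 Mg-deficient; bars, mean and SD of the 5 control or 3 Mg-deficient libraries; linear axes that include 0). BIP3, CNX1, ICS1 and GSTF2 are low in all Mg-deficient libraries and in C1, whereas CAX1, CML41, LHCB2.1, CAB3 and AMY1 are higher and DRM1 lower in the 3 Mg-deficient libraries than in every control.

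Single genes of flavonoid and sugar metabolism were higher. CHS (AT5G13930), chalcone synthase, the first enzyme of flavonoid synthesis, was at 31.3, 3.95, 5.41, 50.7 and 18.1 in controls and at 74.8, 434 and 64.1 without Mg. All Mg-deficient libraries were above all controls, but Mg-deficient 2 far exceeded the other 2. CHS differed by 3.02 ± 0.73 (adjusted p = 0.451, 2.14 to 3.51 over the leave-one-out fits, and not called without Mg-deficient 2). Among 16 genes of anthocyanin and flavonol synthesis 4 were higher at p under 0.05 (CHS, PAL2, 4CL3 and FLS1), beside 2.52% of all genes, and the median was 0.99. The list was at 1.24 in Mg-deficient 2 and at 0.39 and 0.23 in Mg-deficient 1 and 3, beside -0.32 to 0.38 in the controls, so that Mg-deficient 3 lay within the controls and Mg-deficient 1 at their upper edge. Without Mg-deficient 2 the median was 0.37 and 1 gene was higher, and 1 was higher also without control 2 or without control 3. AMY1 (AT4G25000), a secreted alpha-amylase, was at 7.72, 27.8, 9.20, 40.5 and 101 and at 115, 133 and 176, all above the controls, a log2 fold change of 2.46 ± 0.61 (adjusted p = 0.451) called in each leave-one-out fit. The enzymes of starch breakdown PWD and AMY3, of the plastid, and DPE2, of the cytosol, were at 0.55, 0.72 and 0.60 and the cell wall invertase CWINV1 at -1.76, all 4 with p under 0.05 before adjustment only, and the median of 36 starch and sucrose genes was 0.34. Phloem loading genes were not called. SUC2, the companion cell sucrose transporter, was at -0.07 and SUC1 at -0.21, and none of 21 sugar transporter genes had p under 0.05. DRM1 (AT1G28330), a dormancy gene that sugar starvation raises, was lower, with 494, 383, 627, 582 and 405 in controls and 205, 219 and 278 in Mg-deficient leaves. No library overlapped, control 1 included, and the log2 fold change was -1.07 ± 0.23 (adjusted p = 0.44) with a call in each leave-one-out fit.

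Among genes that averaged a signal of 20 or more with no overlap between groups, the largest differences at p under 0.01 were mostly of genes outside the lists. Beside CHS, AMY1, CML41, BAP1 and GAE5 (AT4G12250), a UDP-glucuronate epimerase of pectin synthesis at -2.94 ± 0.75 (adjusted p = 0.451), these were acid phosphatases in both directions, PAP29 at 2.18 ± 0.57 and PAP18 at -2.05 ± 0.53. Higher were also the defensin-like LCR69 (1.91 ± 0.42), AT1G25175 (1.68), AT1G62420 (1.56), AT2G32140 (1.54), the auxin efflux carrier family gene AT1G76530 (1.45) and the RNA-binding protein gene AT4G09040 (1.43). Lower were NOXY2 (-2.52), the beta carbonic anhydrase BCA3 (-2.50), AT1G07200 (-2.43), the homeodomain factor BLH3 (-2.06 ± 0.43), isovaleryl-CoA dehydrogenase IVD (-2.04), the PHD finger gene AT5G22760 (-2.01) and the RING gene AT1G08050 (-1.97 ± 0.50). Of the 51 named genes at p under 0.01 a call was kept in every leave-one-out fit by 18, and 33 lost it in at least 1. The number lost was 15 without Mg-deficient 1, 17 without Mg-deficient 2 and 17 without Mg-deficient 3, and 2 to 8 without a control. AT2G32140 lost it without control 1, 2 or 4 or Mg-deficient 2 or 3 (1.146 to 1.951 over the fits), AT1G76530 without any 1 of the Mg-deficient libraries (1.081 to 1.695), NOXY2 without control 2, 3 or 4 or Mg-deficient 3 (-3.13 to -1.36) and AT5G22760 without control 3 or Mg-deficient 2 (-2.48 to -1.36). In 1 fit it was lost by PAP29 (without Mg-deficient 3, 1.93 to 2.42), AT1G25175 (without Mg-deficient 1, 1.52 to 1.84) and, without Mg-deficient 2, by AT1G62420 (1.23 to 1.75), AT4G09040 (1.11 to 1.64), IVD (-2.47 to -1.38) and BCA3 (-3.23 to -1.18).

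Single members of other lists were called. VSP2 (AT5G24770), a vegetative storage protein that jasmonate raises, was at 50.4, 40.7 and 6.31 in Mg-deficient leaves and at 6.97 or less in controls, a log2 fold change of 3.33 ± 0.99 (adjusted p = 0.564, 2.81 to 4.22 over the leave-one-out fits, and not called without Mg-deficient 1 or without Mg-deficient 2). The groups overlapped by 1 control. TGG2, a myrosinase of glucosinolate defence, was higher at 1.28 ± 0.33 (1.007 to 1.488 over the fits, not called without Mg-deficient 1) and ROF2, a heat-induced peptidyl-prolyl isomerase, at 1.14 ± 0.33 (0.95 to 1.37, not called without Mg-deficient 1 or without Mg-deficient 2). TCH4, a xyloglucan enzyme of the cell wall, was at 2.94 ± 0.99 in a call that ended without any 1 of controls 2, 3 and 5 and of the 3 Mg-deficient libraries (2.54 to 3.42). Lower were P5CS1, which makes proline (-1.30 ± 0.36, not called without Mg-deficient 3, -1.61 to -1.11 over the fits), ABI1, a phosphatase that restrains abscisic acid signals (-0.79 ± 0.25, lost without control 2, control 4, Mg-deficient 2 or Mg-deficient 3, -0.97 to -0.56), and DIM1A, an rRNA methylase (-1.06 ± 0.34, lost without control 1, 2 or 3 or Mg-deficient 2 or 3, -1.34 to -0.85). Over 35 lists 17 had no member at p under 0.01, and their medians lay between -0.31 and 0.34. Among the 334 members tested of these 17 lists, 13 were higher (3.89%) and 9 lower (2.69%) at p under 0.05, beside 2.52% and 4.43% of all genes. They included the circadian clock, ethylene, nitrogen, cell division and mitochondrial retrograde lists, in which no member passed 0.05. OM66, an outer mitochondrial membrane ATPase and marker of retrograde signals, was at 0.71 (adjusted p = 0.787), with 13.6, 62.6, 97.9, 34.4 and 111 in controls and 83.3, 79.2 and 86.6 in Mg-deficient leaves.

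The change differed from that of expanding leaves of the same day for many genes. In expanding leaves (3 Mg-deficient and 5 control libraries) limma called 2132 genes higher (13.7%) and 2297 lower (14.8%) after adjustment at 0.05. Among the 14522 genes tested in both tissues, 1854 differed in their change at an adjusted p under 0.05, 877 with the higher value in mature leaves (6.04%) and 977 with the lower (6.73%), and 1075 did without Mg-deficient 1. The difference was that of the log2 fold changes over the root of the summed squared SEs, which takes libraries as independent although leaves of 1 plant may be in both tables. Of 34 salicylic acid genes 29 were higher in expanding leaves and 25 had a lower change in mature leaves, with medians of 3.43 and -0.39. ICS1 was at 5.59 ± 0.56 (SE) in expanding leaves, so that its change in mature leaves was -7.69 ± 0.78 relative to it (adjusted p = 0.000644 over all genes tested, from the limma SEs). BAP1 and GSTU4 differed by -8.56 ± 0.79 and -10.73 (SE 1.1503), being higher at an adjusted p under 0.05 in expanding leaves. Leaf senescence had medians of 3.48 and -0.58, with 10 of 14 genes lower in their change in mature leaves, and mitochondrial retrograde genes 5.27 and 0.18, with 7 of 8.

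Photosynthesis differed the other way. Carbon fixation had a median log2 fold change of -1.43 in expanding leaves, with 26 of 33 genes lower, beside 0.05 in mature leaves. The change in mature leaves was the higher for 19, beside 6.04% of all genes. For photosystem and electron transport subunits the medians were -1.14 and 0.22 and the change in mature leaves was the higher for 15 of 31. Starch and sucrose metabolism gave -1.02 and 0.34, with 8 of 35, and chlorophyll synthesis -0.82 and 0.16, with 8 of 25. The antenna was mixed: 5 genes were higher and 5 lower in expanding leaves, 7 had the higher and 1 the lower change in mature leaves, and LHCB2.1 changed by 0.99 in both. CAB2 was at 4.61 ± 0.30 in expanding and 0.28 ± 0.36 in mature leaves (adjusted p = 0.000786 for the difference, limma SEs). ER protein folding had a median of -0.28 in expanding leaves, beside -0.34 over all genes tested there. Of its members 4 of 41 had a lower change in mature leaves, near the 6.73% of all genes. CAX3 and CML41, higher in mature leaves, were at 5.81 and 4.79 in expanding leaves, differences of -4.82 ± 0.85 and -3.31 ± 0.75 (adjusted p = 0.00841 and 0.021, limma SEs). CAX1 was at 0.40 ± 0.55 in expanding leaves, and the difference of 0.56 ± 0.59 was not called.

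Over time in mature leaves, no difference between the changes on day 3 and day 5 passed adjustment. On day 3 (3 Mg-deficient and 4 control libraries) no gene passed an adjusted p under 0.05 in limma, and 20 were higher and 28 lower before adjustment at 0.01. None of 14453 genes differed in its change between day 3 and day 5 at an adjusted p under 0.05, while 313 had a higher and 400 a lower change on day 5 at an unadjusted p under 0.05. The medians of the 35 lists on day 3 ran from -0.79 (cell division, 12 genes) to 0.22 (cytosolic heat shock), with 0.17 for ER protein folding, 0.16 for salicylic acid, -0.23 for the antenna and -0.11 for anthocyanins. CAX1 was already at 1.16 ± 0.20 on day 3 (adjusted p = 0.167 in limma), beside 0.96 ± 0.22 on day 5.

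Day 8 had more calls. There (4 Mg-deficient and 4 control libraries) 457 genes were higher (3.43%) and 23 lower (0.173%) at an adjusted p under 0.05 in limma, and the median change over the genes tested was 0.91 on the log2 scale, against which the values of that day are to be read. Of 12915 genes 32 (0.248%) differed in their change, all of them with the lower value on day 5, and the count ran from 5 without control 4 to 236 without control 1. It was 14 without control 2, 14 without control 3, 11 without Mg-deficient 1 and 7 without Mg-deficient 3. BAP1 went from -2.88 to 4.81, NIMIN-2 from -2.19 to 4.74, GSTU4 from -3.48 to 3.73 and GSTF2 from -2.02 to 2.03, with differences of -7.68, -6.93, -7.20 and -4.05 (adjusted p from limma SEs of 0.0289, 0.0473, 0.044 and 0.0135). For CNX1 the values were -1.28 and 1.52. The ER list had a median of -0.79 on day 5 and of 1.85 on day 8, with 3 of 39 members called different, and the salicylic acid list -0.39 and 3.19, with 1 of 33. Of the 68 genes higher on day 5, 53 of 63 tested were positive on day 8 and 8 were higher at an adjusted p under 0.05, and of the 166 lower, 111 of 155 were positive and 14 higher, beside 3.43% of all genes higher. The medians of these genes on day 8 were 1.29 and 0.88, beside the 0.91 over all genes tested. With that median most genes were positive on day 8, so that the counts of positive genes are to be read against it. DRM1 kept its direction, at -1.997 on day 8 (adjusted p = 0.013 in limma).

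**Figure D4:**
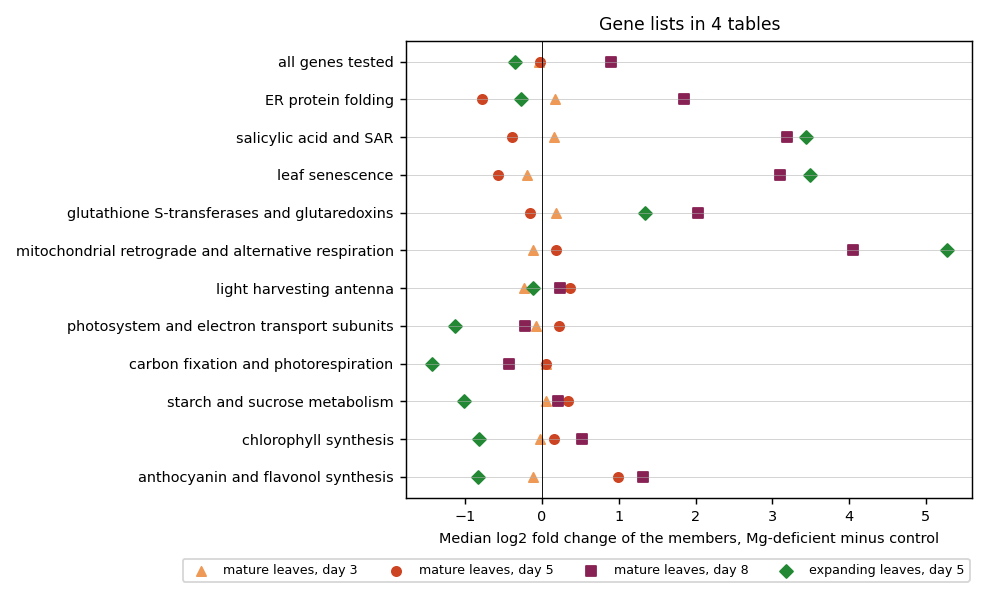
Median log2 fold change (Mg-deficient minus control) of the members of 11 gene lists and of the genes tested in mature leaves on day 5, in mature leaves of day 3, of day 5 and of day 8 and in expanding leaves of day 5, each from its own table. On day 5 the mature leaf medians for salicylic acid (-0.39) and leaf senescence (-0.58) are far from those of expanding leaves (3.43 and 3.48) and of mature leaves on day 8 (3.19 and 3.102), where the median of the 12915 genes tested on both days is 0.90.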

How the data were processed

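Reads had been aligned to TAIR10 by the authors, summed over genes and normalised, and the deposited signal is the count adjusted to a library size common to 1 tissue and day. The aligner is not given in the sources used here. The adjustment was undone to recover whole reads, and whole reads gave back 99.997% of the deposited values within a relative tolerance of 0.001, also among the 121015 values over 0 and under 100, where 1 read is well over that tolerance. Log2(signal + 1) of genes averaging a signal of 5 or more was fitted with limma 3.58.1 (R 4.3.3; moderated variance with a trend on the mean, two-sided), and p-values were adjusted by the Benjamini-Hochberg method over all 15243 genes. All p-values of single genes come from this fit, a gene being called at an unadjusted p under 0.01 unless 0.05 is stated, and log2 fold changes of low genes are understated by the added 1. Fits with other pseudocounts, filters, scaling and weights, without each library and with voom on whole reads were compared. Changes in 2 tables were compared as the difference of log2 fold changes over its combined SE. Named genes were the 10 highest and 10 lowest changes at p under 0.01 with a mean signal of at least 20 and no overlap, up to 4 members at p under 0.01 of each of 35 lists (or the 2 most abundant where none passed) and members the study names. List members beyond these, BIP1, EDS5 and LHCB2.3 among them, were named after their values were seen. Members and lists were chosen with earlier results of these data known. Motifs were searched in RefSeq promoters (TAIR10.1) with Python 3.11.15.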

Additional observations from a re-analysis of the deposited data

Results flagged for a closer look

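In 4 genes 1 control library stood apart from the other controls by Dixon's test, which flags about 1 in 20 groups by chance. With 101 named genes, that rate would give at least as many flags by chance. The signal was 615.7 for CML41 and 75.41 for GAE5, both in control 5, 291 for PHT3;1 in control 1, the lowest there, and 366.7 for CHLH in control 2.

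For 23 of the 51 named genes at p under 0.01, the change in mature leaves differed from that in expanding leaves of the same day. The threshold was an adjusted p under 0.05, from limma SEs, which 12.8% of all genes tested in both tissues passed. The named genes were chosen for their change in mature leaves on day 5, which enters each difference. Their share therefore cannot be compared with that of all genes. Some of the 51, such as AMY1 and AT1G62420, were not tested in expanding leaves. The change was higher in mature leaves by 2.68 for LCR69, 3.45 for AT1G25175, 2.59 for AT4G09040, 3.85 for CHS, 5.996 for VSP2, 1.81 for TGG2 and 2.199 for LHCB4.2. Among higher genes of mature leaves the difference was -4.10 for AT2G32140, -3.31 for CML41, -1.78 for ROF2 and -4.82 for CAX3. Among lower genes it was -6.24 for AT1G08050, -3.01 for BLH3, -8.56 for BAP1, -1.42 for ABI1, -3.10 for WRKY70, -3.96 for RD26, -2.95 for AT5G03350, -3.44 for GSTF2, -7.69 for ICS1, -5.83 for NIMIN-2, -10.73 for GSTU4 and -7.78 for IGMT2. Among the same named genes the change differed from mature leaves on day 8 by -7.68 for BAP1, -4.05 for GSTF2, -6.93 for NIMIN-2, -7.20 for GSTU4 and -2.80 for CNX1. Over all genes tested on both days 0.248% differed, a share that again cannot be compared with that of genes chosen for their change on day 5.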

How the results depend on the processing

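None of the 51 named genes at p under 0.01 changed sign in a fit that left out 1 library. Where the groups did not overlap the sign could not change. The others were chosen at p under 0.01 in the same libraries, so that the kept signs are no test of robustness. They also do not extend to named genes that were not called, such as CAB2, some of which lay near 0. The 68 higher genes became 110 without the filter on signal, 152 with array weights, 127 with voom, 116 with a term for the class of organelle share and 116 in the 5 libraries of high organelle share. The 166 lower genes became 289 with array weights and 74 with voom. An adjusted p under 0.05 was reached by 5 higher and 15 lower genes with array weights, 7 and 47 without control 1, 3 and 1 without control 5, 2 and 3 without control 5 and Mg-deficient 2 and 1 and 0 at high organelle share. Leaving out 1 library gave 39 to 120 higher and 89 to 320 lower genes, 1075 to 2327 genes that differed from expanding leaves and 5 to 236 that differed from day 8. The 32 that differed from day 8 became 9 and 87 with pseudocounts of 0.25 and 5, 107 without the filter, 7 with a mean signal of at least 20, 68 with the organelle term and 2 in the libraries of high organelle share. Of the lists, counted at p under 0.05, ER protein folding (21 lower) gave 7 in the libraries of high organelle share and 9 to 26 without 1 library. Salicylic acid (7) gave 15 with array weights, 4 with voom, 2 at high organelle share (with 3 higher) and 4 to 17 without 1 library. The antenna (6 higher) gave 12 with array weights, 12 with the organelle term and 4 to 10 without 1 library. Senescence (2 lower) gave 4 without the filter, 5 with array weights, 4 without control 5 and Mg-deficient 2 and 2 to 7 without 1 library, and its median turned to 0.0188 at high organelle share. Anthocyanins (4 higher, median 0.99) gave 2 and a median of 0.57 at a mean signal of at least 20, a median of 0.57 with array weights, 1 and 0.38 without control 5 and Mg-deficient 2, and 1 to 5 with medians of 0.37 to 1.17 without 1 library. Of the named genes called, 15 lost the call with voom, 17 without control 5 and Mg-deficient 2 and 22 at high organelle share. The causes were not tested.

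Deviations of same-numbered libraries correlated at 0.23, 0.09 and -0.10. The same-numbered Mg-deficient library was the best match of controls 1 and 2 but the poorest of control 3. Control 5 and Mg-deficient 3, of unlike number, correlated at 0.18. Whether the replicate numbers mark pairs was not tested. With the replicate number as a block, in replicates 1 to 3, 165 genes were higher, 234 lower and 12 ER genes lower, beside 117, 156 and 8 in the same libraries without the block. Of these 19 higher and 15 lower genes passed adjustment with the block, and 2 and 0 without it. Of salicylic acid genes 5 were higher and 8 lower at p under 0.05 with the block and 3 and 5 without it, and PR2 was higher with it at 1.55 ± 0.29 (adjusted p = 0.0362, limma). The quasi-likelihood and exact tests of edgeR and DESeq2 were not run. The alternatives on organelle share, on control 5 with Mg-deficient 2 and on replicates 1 to 3 were chosen after seeing the data. With 1126462 to 4015258 reads a library, genes of low signal carry the widest errors.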
